A study of Mus musculus with 8 samples.

Results

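Solute carriers are membrane proteins that move amino acids, ions, metals, sugars and other small molecules across the plasma membrane and the membranes of organelles, and their genes carry the symbol Slc followed by a family number. Oligodendrocytes use them to take up glutamate and lactate, to buffer pH and to handle the iron that myelin synthesis requires. Klf6 is a Krüppel-like zinc finger transcription factor, and factors of this family are known to recognise GC-rich and CACCC-type DNA. The genes described here were chosen by symbol alone: every gene named as the nearest in a list of Klf6 chromatin immunoprecipitation (ChIP-seq) peaks whose symbol begins with Slc and a digit. There were 53 such genes among 3888 genes with a listed peak, with 113 peaks between -50 kb and +5 kb of a transcription start site (TSS).

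The peaks came from 4 samples of primary mouse cells of strain C57BL/6. Oligodendrocyte progenitors (OLP), grown with PDGF-AA and bFGF, gave replicates A and B without further treatment, and immature oligodendrocytes (iOL), the same kind of culture given thyroid hormone (T3) at 40 ng/ml for 18 h, gave another A and B. Both stages were precipitated with the same rabbit polyclonal anti-Klf6 antibody, and the matching inputs (sheared chromatin without antibody) have no list of their own. A peak list holds no expression values, so the stage of the cells could not be checked against marker genes here.

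The lists held between 5777 peaks (iOL B) and 12451 peaks (OLP A), and tags inside peaks summed to between 105081 and 152149 per sample. The numbers of aligned reads are not given in the sources used here, so the depth of each library is not known. These sums depend on which peaks were called and do not measure depth. The smallest peak in the list held 7 tags in OLP A, 9 in OLP B, 7 in iOL A and 10 in iOL B. Tag counts therefore start from unlike floors in the samples. Slc genes made up 31 of 2080 genes in OLP A, 16 of 1420 in OLP B, 27 of 1776 in iOL A and 18 of 1099 in iOL B. The peaks were small: the 113 Slc peaks held a median of 10 tags, from 7 to 47, and 49 of them held fewer than 10. This was not particular to the Slc genes. The 7855 peaks listed with a gene also held a median of 10 tags. At least 10 tags were held by 64 of the Slc peaks and by 4384 of the 7855. MACS, the peak caller, had given each a score of -10 log10 of its p-value. Of the 113 Slc peaks 19 scored 100 or more, beside 838 of the 7855.

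Of the 53 genes, 8 had a peak in all 4 samples, 1 in 3 samples, 13 in 2 samples and 31 in 1 sample. Over all 3888 genes 9.00% had a peak in all 4 samples, and 63.9% had one in exactly 1. Each of the 8 genes had a single site that was called in all 4 samples, where peaks no more than 500 bp apart were taken as 1 site. Of the 72 Slc sites, 8 were called in all 4 samples and 51 in exactly 1, where 5.18% and 76.7% of the sites of all genes were. The 8 were Slc40a1 (ferroportin, the cellular iron exporter), Slc24a3 (a potassium-dependent sodium/calcium exchanger), Slc4a10 (a sodium-driven bicarbonate transporter), Slc7a2 (a cationic amino acid transporter), Slc5a12 (a sodium-coupled lactate transporter), Slc30a8 (the zinc transporter of insulin granules), Slc10a2 (the ileal bile acid transporter) and Slc22a19 (an organic anion transporter).

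**Figure D1:**
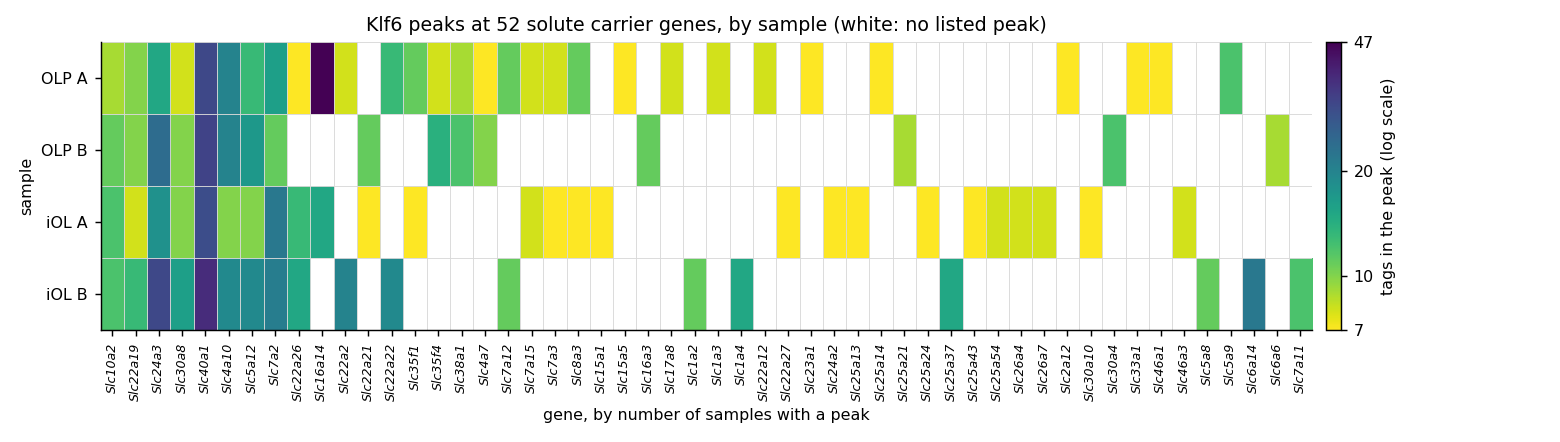
Each column is 1 of 52 of the 53 Slc genes and each row 1 sample; the colour gives the tags of the gene's largest peak in that sample on a log scale from 7 to 47, and white marks no listed peak. The 8 genes at the left have a peak in all 4 samples, and the 31 genes at the right have one in a single sample.

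The sequences under these 8 sites were repetitive. Each peak was cut into all its overlapping stretches of 32 bases and compared with the whole mm9 genome, and a peak is termed repeated here if over 50% of the stretches had further copies. All 33 peaks at the 8 sites were repeated. The median stretch of a peak at these sites had a median of 1490 copies in the genome. Runs of identical bases also joined sites of different Slc genes. Of the 72 sites, 25 shared a run of at least 32 bases with a site of another Slc gene on either strand, and 41 shared a run of at least 24 bases. At 32 bases these were 4 of the 8 sites called in all 4 samples and 14 of the 51 called in 1 sample, and at 24 bases 7 of the 8 and 24 of the 51. Runs were sought in every peak of a site. The 8 sites held 33 peaks and the 51 sites held 51, so the 8 had more sequence per site in which to find a run. The Slc40a1 site was joined through a smaller second peak. The share over the sites of all genes was not computed. The largest set joined by 32-base runs held 7 genes, among them Slc22a19, Slc25a14, Slc25a54, Slc26a7, Slc5a12 and Slc7a2.

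The peaks of 3 genes of that set are shown first because 1 run of 34 bases, in capitals, lies in all of them. That run occurs 10985 times in the genome. They are the peaks of Slc7a2 in iOL A (chr8:41925735-41925883), Slc5a12 in OLP A (chr2:110419925-110420026) and Slc26a7 in iOL A (chr4:14588138-14588224), all in mm9. The first 2 are read on the plus strand and Slc26a7 on the minus strand, so that the run reads alike.
Slc7a2: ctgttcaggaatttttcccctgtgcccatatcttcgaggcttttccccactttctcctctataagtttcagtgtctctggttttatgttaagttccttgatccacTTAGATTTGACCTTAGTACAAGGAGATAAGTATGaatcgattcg
Slc5a12: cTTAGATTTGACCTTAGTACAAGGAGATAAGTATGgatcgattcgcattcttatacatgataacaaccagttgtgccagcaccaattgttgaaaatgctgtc
Slc26a7: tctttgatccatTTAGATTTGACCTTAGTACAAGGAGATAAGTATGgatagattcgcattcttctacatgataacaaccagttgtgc

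A second pair joined 2 genes with sites in all 4 samples. Slc24a3 (iOL B, chr2:145067078-145067312, plus strand) and Slc4a10 (OLP B, chr2:61877217-61877349, plus strand) lie far apart on chromosome 2 and share the 29 bases in capitals, which occur 3559 times in the genome.
Slc24a3: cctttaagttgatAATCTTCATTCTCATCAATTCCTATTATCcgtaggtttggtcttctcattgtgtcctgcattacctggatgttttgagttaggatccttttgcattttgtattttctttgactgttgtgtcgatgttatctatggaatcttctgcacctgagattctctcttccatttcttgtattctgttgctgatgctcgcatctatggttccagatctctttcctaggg
Slc4a10: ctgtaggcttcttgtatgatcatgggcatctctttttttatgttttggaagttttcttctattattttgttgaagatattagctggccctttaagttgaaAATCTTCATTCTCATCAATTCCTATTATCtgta

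The zinc transporter gene Slc30a8 shared a run of 31 bases, with 10503 copies in the genome, with Slc35f4, an orphan carrier whose peaks were called in OLP only. The peaks shown are those of Slc30a8 in OLP A (chr15:52104484-52104561, plus strand) and Slc35f4 in OLP B (chr14:50156119-50156264, minus strand).
Slc30a8: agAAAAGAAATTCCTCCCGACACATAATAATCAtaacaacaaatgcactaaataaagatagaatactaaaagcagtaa
Slc35f4: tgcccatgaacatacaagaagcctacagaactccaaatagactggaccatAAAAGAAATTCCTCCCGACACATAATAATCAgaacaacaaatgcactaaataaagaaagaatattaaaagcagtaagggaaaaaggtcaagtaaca

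The organic anion transporter gene Slc22a19, its neighbour Slc22a26 and Slc7a12, an amino acid transporter gene on another chromosome, shared the 32 bases in capitals, which occur 15799 times. The peaks are those of Slc22a19 in OLP A (chr19:7792826-7792913, plus strand), Slc22a26 in OLP A (chr19:7883244-7883403, plus strand) and Slc7a12 in iOL B (chr3:14469305-14469425, minus strand).
Slc22a19: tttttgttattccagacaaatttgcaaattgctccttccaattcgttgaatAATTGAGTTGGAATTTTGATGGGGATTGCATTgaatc
Slc22a26: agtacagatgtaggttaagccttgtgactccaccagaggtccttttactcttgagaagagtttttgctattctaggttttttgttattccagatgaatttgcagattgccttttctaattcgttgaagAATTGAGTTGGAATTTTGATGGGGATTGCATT
Slc7a12: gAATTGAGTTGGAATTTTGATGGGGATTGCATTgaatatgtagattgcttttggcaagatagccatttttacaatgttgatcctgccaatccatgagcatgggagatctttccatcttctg

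The Slc40a1 peak with the most tags, in iOL B, had a median of 5190 genome copies per 32-base stretch. At Slc10a2 the peaks differed in extent, and the same median was 37 in OLP A, 13 in OLP B, 1528 in iOL A and 12.5 in iOL B. The iOL A peak (chr8:5127630-5127791, plus strand), the highest of the 4, is shown whole, without capitals.
Slc10a2: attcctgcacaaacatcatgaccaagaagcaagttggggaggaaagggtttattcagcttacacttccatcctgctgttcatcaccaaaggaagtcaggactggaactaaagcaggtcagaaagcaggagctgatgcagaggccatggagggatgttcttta

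**Figure D2:**
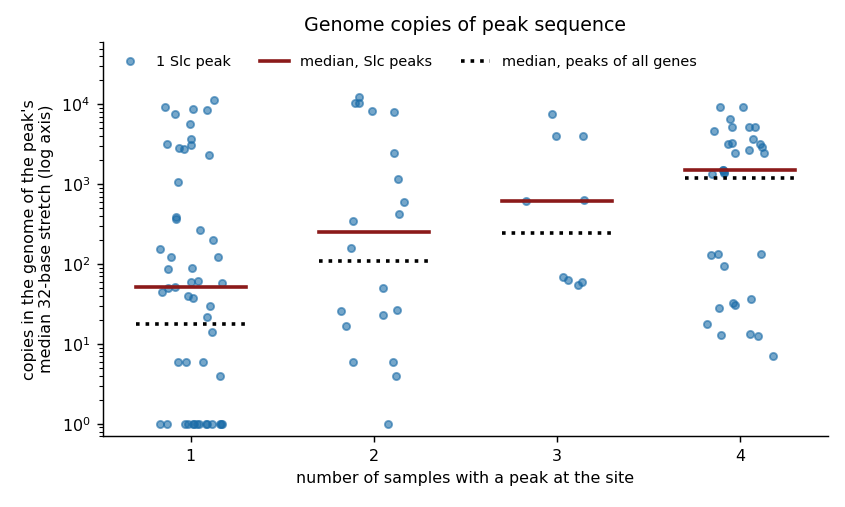
Each point is 1 Slc peak; the x axis counts the samples in which its site was called and the y axis, on a log scale, the number of copies in the genome of the peak's median 32-base stretch. The Slc median rises from 51.0 at sites called in 1 sample to 1490 at sites called in all 4, and the median over peaks of all genes from 18.0 to 1213.

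Repeated sequence was not particular to the Slc genes. In all, 98 of the 113 Slc peaks were repeated, beside 81.9% of the 7855 peaks listed with a gene. The share grew with the number of samples that had the site in both sets. Among Slc peaks, 37 of 51 were repeated at sites called in 1 sample, 19 of 20 at sites in 2 samples, 9 of 9 at sites in 3 and 33 of 33 at sites in 4, where the shares over all genes were 70.6%, 93.3%, 95.4% and 97.2%. How reads that align to several places were treated is not given in the sources used here, and the part of repeated sequence in the calls was not tested.

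At the 8 sites the summits, the positions of highest tag density, were close to each other in the 4 samples. At Slc4a10 they spanned 1 bp, at Slc22a19 5 bp, at Slc24a3 6 bp, at Slc5a12 and Slc30a8 10 bp, at Slc10a2 15 bp and at Slc7a2 16 bp. At Slc40a1 the span was 370 bp, because a second, smaller peak was called beside the main one in iOL A.

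Slc40a1 had the most tags of these sites in every sample. Its site lay at -48.3 kb and held 31 tags in OLP A, 32 in OLP B, 30 in iOL A and 37 in iOL B. The fold enrichment over input that MACS gave was 40.4, 16.7, 47.4 and 13.2 in the same order, so both A samples stood above both B samples and the stages overlapped. The nearest start in the GENCODE annotation was that of Rpl23a-ps1, a ribosomal protein pseudogene.

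Slc24a3 was the only Slc gene with a site in all 4 samples within 2 kb of a TSS. The site lay at -1.13 kb, with 15, 24, 18 and 31 tags in OLP A, OLP B, iOL A and iOL B. The fold enrichments were 23.0, 24.8, 39.7 and 29.6, and both iOL values lay above both OLP values. Ranked by fold within each sample, the same peaks stood at percentiles 85.4, 98.6, 98.3 and 99.1 of all peaks, and the stages overlapped (p = 0.667, exact two-sided permutation test). In the GENCODE annotation the summit falls in an intron of Slc24a3, downstream of a start that is more distal than the one in the lists. Slc4a10, which has a role in neuronal pH control, was the other site without overlap between stages in fold, and it kept this on the percentile scale. Its site at -7.31 kb held 20, 20, 10 and 19 tags, with fold enrichments of 46.2 and 21.4 in OLP against 19.9 and 18.0 in iOL.

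None of the stage differences at these sites can pass a test with 2 samples against 2. An exact two-sided permutation test gave p = 0.333 for Slc24a3 (23.9 ± 1.25 in OLP and 34.7 ± 7.14 in iOL, SD, n = 2) and p = 0.333 for Slc4a10 (33.8 ± 17.5 and 18.9 ± 1.33), which is the smallest p that this design allows. Over all genes, 284 sites were called in 4 samples. Of these 6.34% had fold enrichments higher in both OLP samples than in both iOL samples, and 4.93% had the opposite, beside 1 of the 8 Slc sites in each direction. The A replicate had the higher fold at 7 of the 8 sites in OLP and at all 8 in iOL, and the median fold of all peaks with a gene was 14.6 and 14.9 in the A samples and 9.01 and 10.6 in the B samples.

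**Figure D3:**
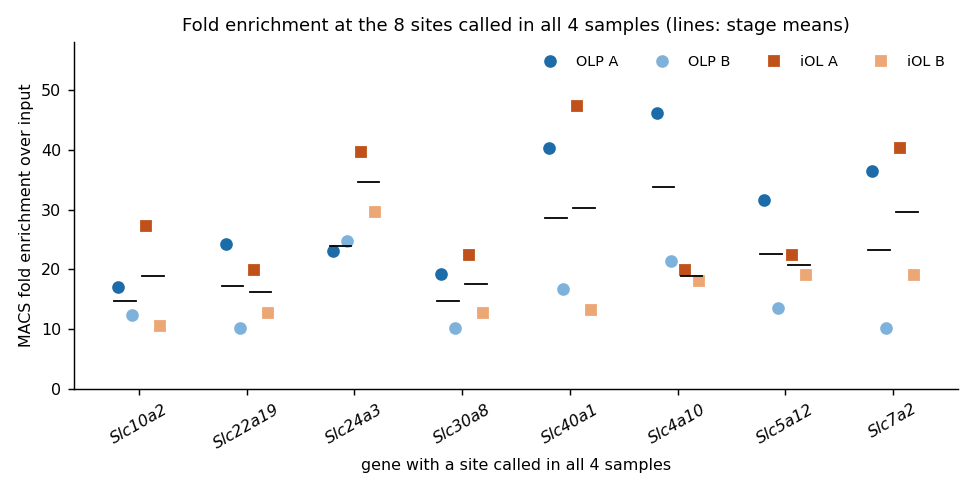
MACS fold enrichment over input (y axis, linear) at the 8 Slc sites called in all 4 samples, with circles for OLP, squares for iOL and short black lines for the mean of each stage. The stages overlap at 6 of the 8 genes, and in iOL replicate A lies above replicate B at every gene.

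The other 5 sites held between 8 and 22 tags. Slc7a2, at -21.9 kb, held 16 and 11 tags in OLP and 22 and 21 in iOL, and its fold enrichments of 36.5, 10.1, 40.3 and 19.0 overlapped between stages. Slc5a12, at -17.5 kb, held 13, 12, 10 and 19 tags, with fold enrichments of 31.6, 13.5, 22.3 and 19.0. This gene had 2 further sites near -24.9 kb and -24.0 kb, each called in 3 samples, and with 10 peaks it had more than any other Slc gene. Slc30a8, at -22.6 kb, held 8, 10, 10 and 16 tags and Slc10a2, at -22.5 kb, held 9, 11, 12 and 12. Slc22a19, at -7.07 kb, held 10, 9, 8 and 13 tags, with fold enrichments from 10.1 to 24.3.

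The strongest Slc peaks of each sample were largely these sites. By fold enrichment the first 3 were Slc4a10, Slc40a1 and Slc7a2 in OLP A, Slc24a3, Slc4a10 and the -24.9 kb site of Slc5a12 in OLP B, Slc40a1, Slc7a2 and Slc24a3 in iOL A, and Slc24a3, Slc5a12 and Slc7a2 in iOL B. By tags, peaks called in fewer samples entered the first 3. Slc16a14, an orphan member of the monocarboxylate transporter family, had 47 tags at -40.1 kb and 22 tags at -48.5 kb in OLP A, over broad peaks of 666 and 383 bases with fold enrichments of only 4.90 and 4.57. Slc6a14, an amino acid transporter, had 22 tags at -34.3 kb in iOL B.

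The comparison of stages asks whether the Slc genes with a Klf6 peak change as progenitors differentiate under T3. The number of Slc genes with a peak did not separate the stages: OLP had 23.5 ± 10.6 genes per sample and iOL 22.5 ± 6.36 (SD, n = 2 each), a difference of 1.0 with p = 1.0 in the exact two-sided permutation test. The difference was 4 genes within replicate A and -2 genes within replicate B. As a share of all genes with a peak, Slc genes were 1.49% in OLP A, 1.13% in OLP B, 1.52% in iOL A and 1.64% in iOL B, and both iOL values lay above both OLP values (p = 0.333 by the same exact test).

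Both OLP samples had a peak at 11 Slc genes, where 17.3% of all genes did, and both iOL samples at 9, where 15.6% did. Of the 11 genes, 3 had no peak in iOL: Slc38a1, Slc35f4 and Slc4a7. Over all genes this held for 128 of the 671 with a peak in both OLP samples. Such genes were 5.66% of the 53 Slc genes and 3.29% of all 3888 genes. No Slc gene had a peak in both iOL samples and none in OLP, where 1.72% of all genes did. The 3 OLP genes rested on few tags, with 9 and 12 at Slc38a1, 8 and 14 at Slc35f4 and 7 and 10 at Slc4a7 in OLP A and OLP B. Only at Slc38a1 were the peaks at the same site. At Slc35f4, an orphan carrier, the replicates had peaks at -9.68 kb and -10.7 kb, and at Slc4a7, a sodium bicarbonate cotransporter, at -27.7 kb and -26.6 kb.

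Slc38a1 encodes a sodium-coupled transporter of glutamine, and its site lay at -11.4 kb in OLP A and -11.3 kb in OLP B. The 2 summits were 153 bp apart, and the sequence under the 2 peaks differed. Of the 32-base stretches, 91.0% had further copies in the genome in the OLP A peak and 33.6% in the OLP B peak. The OLP A peak (chr15:96484632-96484807, plus strand) is a tandem array in which 94.4% of bases match the base 15 positions further on. Capitals mark the 6 exact copies of its most frequent 15-base unit, which occurs 15 times in the genome.
Slc38a1: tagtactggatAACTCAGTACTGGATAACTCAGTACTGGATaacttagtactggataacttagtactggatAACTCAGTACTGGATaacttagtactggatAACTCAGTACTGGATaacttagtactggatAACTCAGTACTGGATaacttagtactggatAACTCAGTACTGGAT

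Mostly single-copy sequence (at most 50% of the 32-base stretches repeated) lay under 15 of the 113 peaks, at 14 genes, and 14 of these 15 peaks were at sites called in 1 sample. They were spread over the samples as 7 in OLP A, 3 in OLP B, 2 in iOL A and 3 in iOL B. With these peaks alone, no Slc gene had a peak in both replicates of a stage, where 2.14% of the 1264 genes with such a peak did in OLP and 1.27% in iOL. None had one in all 4 samples (0.316%), and each of the 14 genes had its peaks in 1 sample (93.2%). Among them were Slc25a37 (mitoferrin, the importer of iron into mitochondria) with 15 tags at -4.23 kb in iOL B, Slc25a24 (a mitochondrial ATP and phosphate carrier) with 7 tags at +2.74 kb in iOL A, and Slc1a3 (the glial glutamate transporter GLAST) with 8 tags at 5.00 kb downstream in OLP A.

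The first 2 of these peaks are shown as a contrast to the copied runs, on the plus strand of mm9 and without capitals: Slc25a37 at chr14:69907259-69907458 and Slc25a24 at chr3:108928761-108928922. No 32-base stretch of either occurs elsewhere in the genome, and 30.8% of those in the Slc1a3 peak do.
Slc25a37: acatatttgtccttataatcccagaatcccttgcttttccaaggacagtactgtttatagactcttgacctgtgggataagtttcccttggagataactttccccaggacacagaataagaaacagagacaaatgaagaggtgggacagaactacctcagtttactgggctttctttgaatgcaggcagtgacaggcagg
Slc25a24: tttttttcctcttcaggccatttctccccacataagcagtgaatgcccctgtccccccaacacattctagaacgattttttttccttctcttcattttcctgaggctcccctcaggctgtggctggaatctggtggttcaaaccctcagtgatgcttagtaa

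Most listed Slc peaks lay far from the listed starts. The lists name a gene only for peaks between -50 kb and +5 kb of a start. A peak further inside a gene is not listed under it, and most of this window is upstream. The distances and places below are therefore partly set by the window and are no free measure of where Klf6 binds. The listed distances ran from -49.9 kb to +5.00 kb with a median of -20.1 kb, which is also the median of all peaks with a gene, and 109 of the 113 lay upstream of the TSS (93.0% over all genes). A peak between -15 kb and +5 kb was listed for 25 of the 53 genes (48.0% of all genes), and a peak within 2 kb for 3 (8.56% of all genes). Besides Slc24a3 these were Slc15a5, an orphan peptide transporter gene, at 958 bp downstream in OLP A with 7 tags, and Slc26a4, which encodes the anion exchanger pendrin, at 1142 bp downstream in iOL A with 8 tags. In the GENCODE annotation no summit fell in an exon, 22 fell in introns and 91 fell outside any transcript, where the shares over all genes were 2.24%, 24.5% and 73.3%. The summit lay inside the listed Slc gene itself for 11 of the peaks (7.35% over all genes). The gene with the nearest GENCODE start was the listed Slc gene for 98 of the 113 peaks (69.1% over all genes).

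**Figure D4:**
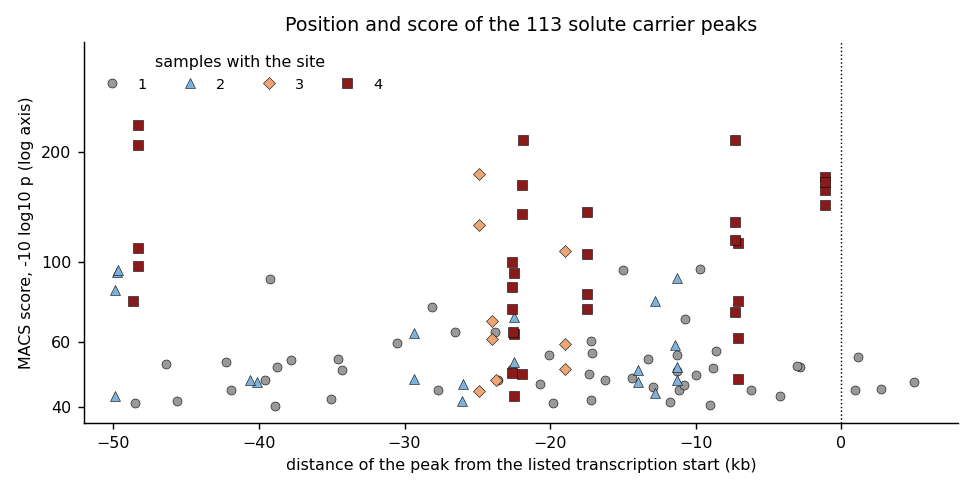
Each point is 1 of the 113 Slc peaks; the x axis is its distance from the listed TSS in kb (negative: upstream) and the y axis its MACS score on a log scale, with the marker showing in how many samples the site was called. Scores of 100 or more (19 peaks) are found at sites called in 3 or 4 samples, and the only such peaks within 2 kb of a TSS are the 4 of Slc24a3.

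The letters CCACCC or CCGCCC, searched on both strands, lay within 100 bases of the summit in 4 of the 113 Slc peaks (6.06% over all genes) and within the listed peak in 3 (4.24%). The 4 peaks belonged to Slc2a12 and Slc16a14 in OLP A, Slc4a7 in OLP B and Slc30a10 in iOL A. Around the summit the Slc peaks had a median GC content of 39.3%, beside 38.3% for the peaks of all genes.

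Peaks of 1 replicate were often not found in the other. Of the 113 Slc peaks, 41 lay within 500 bp of a peak in the other replicate of the same stage, or 36.3% (95% Wilson interval 28.0% to 45.5%), beside 28.9% for the peaks of all genes. Of the 42 Slc peaks of OLP A, 9 were near a peak of OLP B and 15 near a peak of iOL A, where 20.9% and 29.6% of the OLP A peaks of all genes were. Of the 21 in iOL B, 11 were near a peak of iOL A and 13 near a peak of OLP A, where 45.3% and 47.9% of the peaks of all genes were, so the order was the same in both sets. The Wilson interval covers counting error only and treats peaks as independent. A matched pair counts from both sides, and 33 of the 113 peaks lie at 8 sites, so the interval is probably too narrow.

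By transport role, Slc genes with a peak were spread over nearly all groups. Of the 375 protein-coding Slc genes of the RefSeq reference, 53 had a peak (14.1%), beside 15.7% of all protein-coding genes. The groups were formed from family numbers. Amino acid and transmitter carriers had a peak at 12 of 78 genes, and carriers of sugars, monocarboxylates and other organic solutes at 11 of 73. Inorganic ion transporters had one at 7 of 59 and metal transporters at 4 of 32. The Slc35 family, grouped as nucleotide sugar carriers, had one at 2 of 27: Slc35f1 and the orphan carrier gene Slc35f4. Carriers of vitamins, nucleosides, choline, heme and lipids had one at 3 of 30.

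The group of organic cation, anion and drug carriers had the highest share, 7 of 27 genes, all of them Slc22 genes. Of these, Slc22a19, Slc22a26, Slc22a27 and Slc22a12 (a urate transporter) lie on chromosome 19. Slc22a19 and Slc22a26 had 3 sites each, and the -19.0 kb site of Slc22a26 was called in OLP A, iOL A and iOL B with 7, 13 and 15 tags. All 7 mitochondrial carrier genes with a peak, of 47 in the reference, had it in 1 sample, with between 7 and 15 tags. So had the 3 genes with a peak among carriers of vitamins, nucleosides, choline, heme and lipids. A peak in exactly 1 sample was also the most common case, at 31 of the 53 Slc genes and 63.9% of all genes.

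**Figure D5:**
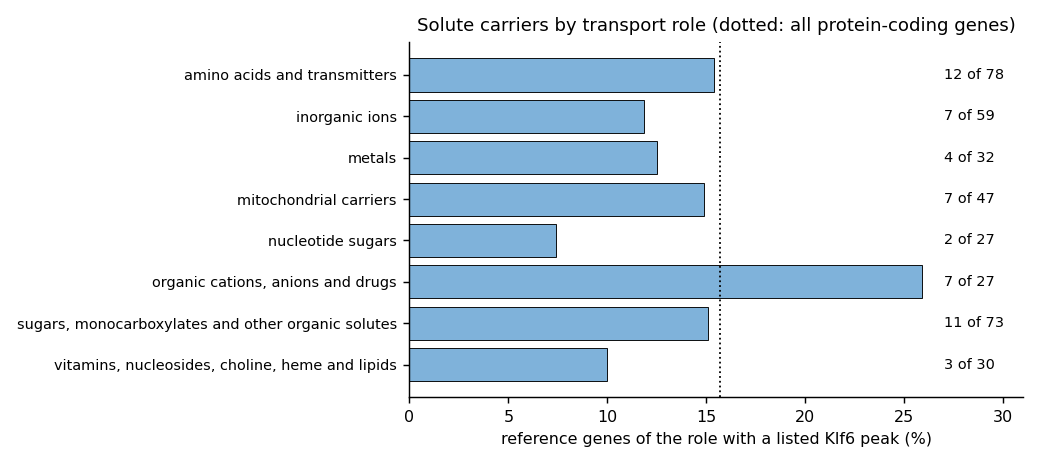
Bars give the percentage of the protein-coding Slc genes of each transport role in the RefSeq reference that have a listed Klf6 peak in any sample, with the counts at the right; the dotted line marks 15.7% for all protein-coding genes. Organic cation, anion and drug carriers stand highest at 25.9% (7 of 27). Lowest of the 8 roles drawn, at 7.41% (2 of 27), is the Slc35 family, grouped as nucleotide sugar carriers. The 2 genes of other families, without a peak, are not drawn.

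Among 33 Slc genes with a known role in oligodendrocytes or glia, 11 had a listed peak (33.3%, beside 14.1% of all reference Slc genes and 15.7% of protein-coding genes), and Slc40a1 was the 1 gene among them with a peak in all 4 samples. This list was put together with earlier results of these data known, so its share is a description. Slc8a3, a sodium/calcium exchanger of the oligodendrocyte lineage, had 11 and 7 tags at -22.5 kb in OLP A and iOL A. Slc38a1 was described above.

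A further 7 genes of that list had a peak in 1 sample each, and the samples differed. They were the glutamate transporter genes Slc1a2 (11 tags, iOL B) and Slc1a3 (8 tags, OLP A), the neutral amino acid transporter gene Slc1a4 (15 tags, iOL B), the taurine transporter gene Slc6a6 (9 tags, OLP B), the cystine/glutamate exchanger gene Slc7a11 (12 tags, iOL B), the manganese exporter gene Slc30a10 (7 tags, iOL A) and the acetyl-CoA transporter gene Slc33a1 (7 tags, OLP A). No peak was listed with the nearest start at Slc16a1 (the lactate transporter MCT1), Slc2a1 (the glucose transporter GLUT1), Slc12a2 (the chloride cotransporter NKCC1), Slc7a5 and Slc3a2 (an amino acid transporter pair), Slc44a1 (a choline transporter) or Slc45a3.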

How the data were processed

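Klf6 ChIP-seq was done on 2 OLP and 2 iOL samples with 4 inputs. After base calling with CASAVA 1.8 and a quality filter, the authors used Bowtie2 for alignment to mm9, and they called peaks in each sample against input with MACS (version not stated), annotating them with RefSeq starts. The deposited lists give tags as a raw count, a score of -10 log10 of the p-value, fold enrichment as a linear ratio, and a false discovery rate in percent. The counts are not normalized between samples.

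Members were all symbols beginning with Slc and a digit in the gene column. The members and lists were chosen with earlier results of these data known. Genes named in the text are those with peaks in all 4 samples, those in both replicates of 1 stage only, the 3 strongest peaks per sample by fold and by tags, those within 2 kb of a TSS or with 3 or more sites, and a list of 33 oligodendrocyte genes. The others that are named (Slc22a26 and other Slc22 genes, the examples in single-copy sequence, the motif peaks and the partners of shared runs) were chosen after their values were seen.

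Peaks at most 500 bp apart formed 1 site. Sequence was read from NCBIM37 (mm9), where 0 peaks ran past a chromosome end, and copies of each 32-base stretch were counted on both strands of the assembled chromosomes. Of 53 symbols, 53 matched RefSeq. Shares carry 95% Wilson intervals, and stages were compared by exact permutation over samples. The methods call the replicates biological, without saying what was separate, so p-values measure only the spread between these samples. The overlap and repeat functions were tested on simulated data. Alternatives were other tag, score, distance and overlap limits, leaving out each replicate, and the replicate block. Python 3.11.15, pandas 2.3.3, scipy 1.17.1 and numba 0.67.0 were used. The inputs have no separate peak list and were not analysed here. Some items are not reported here.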

Additional observations from a re-analysis of the deposited data

Results flagged for a closer look

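Besides the 53 genes named as nearest, 21 Slc genes were listed only as a further gene within reach of a peak that lay nearer to another start. These listings are not part of the counts above. Of the 21, 15 were listed in 1 sample and 3 in 3 or more samples: Slc30a9 (a zinc transporter gene), Slc16a5 (a monocarboxylate transporter gene) and Slc25a45 (a mitochondrial carrier gene). The peaks of Slc30a9 lay nearest to Tmem33, at -49.6 kb of Slc30a9, with 13 tags in OLP A, 15 in iOL A and 11 in iOL B. Those of Slc16a5 lay nearest to Kctd2 and those of Slc25a45 nearest to Neat1, a long noncoding RNA gene. The 3 genes were named after their values were seen.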

How the results depend on the processing

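The number of Slc genes in all 4 samples (8) was 5 with at least 10 tags. It was 6 with a score of at least 50 and 2 with a score of at least 100. Within -15 kb to +5 kb of the TSS it was 3, and within 2 kb it was 1. The number of sites in all 4 samples (8) was 5, 4, 1, 3 and 1 under the same 5 limits. Both counts stayed at 8 with an FDR under 5%. That limit removed no Slc peak, since the largest FDR among the Slc peaks was 4.34%. Both OLP replicates shared 6 genes with at least 10 tags, 4 with a score of at least 100, 5 in the -15 kb window and 1 within 2 kb, and both iOL replicates shared 3, 3 and 1 under the last 3 limits. Fewer peaks remain under the tag, score and distance limits, which lowers these counts by construction. The limit of 10 tags also acts unequally on the samples. It removed no peak of iOL B, where the smallest peak held 10 tags and 18 Slc genes stayed. In OLP A it left 13 of 31 Slc genes. The count of genes in both OLP and no iOL sample (3) was 0 with at least 10 tags, 1 with a score of at least 50, 0 with a score of at least 100, 0 within 2 kb and 1 when both peaks had to be at the same site. The count in both iOL and no OLP sample (0) was 1 with at least 10 tags and 2 when every listed Slc gene was counted.

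With only peaks in mostly single-copy sequence, a limit added after seeing the data, 0 Slc genes had a peak in both OLP, 0 in both iOL and 0 in all 4 samples, no gene was left in both OLP and no iOL sample (0), and 0 sites were in all 4 samples. The difference of 1 gene between stages became -0.5 genes with at least 10 tags, -3 with a score of at least 50 and -2.5 with every listed Slc gene, and as a share of all genes it was -0.27 percentage points. Without 1 sample it ranged from -6.5 to 8.5 genes. The count of genes called in the samples that remained ranged from 8 to 9 and that of sites from 8 to 10. In the replicate block the difference was 4 within A and -2 within B, with a mean of 1, and the smallest p that 2 pairs allow is 0.5. The letters A and B are not shown to pair the samples, since the correlation of the A minus B deviations of the stages was 0.025 over 3888 genes. The share of peaks found in the other replicate was 52.6% (10 of 19) at a score of at least 100 and between 35.4% and 43.8% under the other alternatives. Of 88 alternative values, 58 stayed within 1.5 times the main count or within the spread and 30 did not. The 58 include values that could not move: those under the FDR limit and the mean of the replicate block. Merging symbols listed for the same peak changed no count. For the stage difference, -6.5 and 8.5 genes around a main value of 1 fell within the spread. The tally is therefore no measure of stability. With 7 to 47 tags per peak, an absent call does not show that a site is unbound.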
